A study of Mus musculus with 8 samples.

Results

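The tryptophan kynurenine pathway was followed in the livers of mice fed a Low AA diet and of mice fed the Control diet. Its 8 genes were chosen by symbol: Tdo2, Ido2, Afmid, Kmo, Kynu, Haao, Acmsd and Qprt. All 8 were found among the 11784 genes of the deposited table. Male C57BL/6J mice were switched at 9 weeks of age to amino acid defined diets. The reference diet was Control (TD.140711), and in the other, Low AA (TD.140712), most of the amino acid calories were replaced by carbohydrate. Livers were taken 4 months later from 4 Low AA mice and 4 Control mice after a fast of about 16 hours, so every animal was fasted. Poly(A) RNA was sequenced, and each value is a read count that the authors scaled between mice and rounded, called a scaled read count here. The mice were group housed, and the sources used here do not say which of them shared a cage. The p-values therefore treat the 8 mice as independent, and set the difference between diets against the spread within a diet.

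Tryptophan is an essential amino acid, and the liver degrades most of what is not used for protein through kynurenine. Dioxygenases open the indole ring, a hydrolase releases kynurenine, and further enzymes lead to a labile semialdehyde at which the route forks. One branch ends in quinolinate and NAD, and the other is oxidised through the glutarate route for energy. The liver form of the first enzyme is known to be stabilised by its substrate and induced by glucocorticoids, so its mRNA is not the whole of its control.

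The libraries summed to between 27876664 and 30799385 scaled read counts, which is after scaling and is not the exact depth. All 8 hepatocyte markers examined were in the table, with summed values of 2605292 to 2811088 in the Low AA mice and 2331354 to 2732392 in the Control mice. Control mouse F2212 stood apart, with 36587 scaled read counts of the pancreatic elastase gene Cela1 against 130 to 288 in the other mice, and with 57733 of the acute-phase gene Saa1 against 68 to 2818. It was kept, and each pathway gene is also given without it.

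None of the 8 genes passed an adjusted p under 0.05 between diets (limma, Benjamini-Hochberg adjustment over the whole table), where 0.399% of all genes tested did. Ido2 came closest, at 0.448 of the Control level, with an adjusted p of 0.0511. At an unadjusted p under 0.05 there were 2 of the 8, Ido2 and Kynu, against 11.8% of all genes. In 1 of the 8, Ido2, the values of the diets did not overlap, against 6.81% of all genes. The fold change was negative for 6 genes and positive for 2, and it was negative for 49.5% of all genes. The median log2 fold change was -0.16 over the 8, against 0.00 over all genes. With vooma weights in place of the mean-variance trend the count of genes past the threshold was also 0. In liver tissue, fewer cells of a type and less RNA per cell cannot be told apart.

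**Figure D1:**
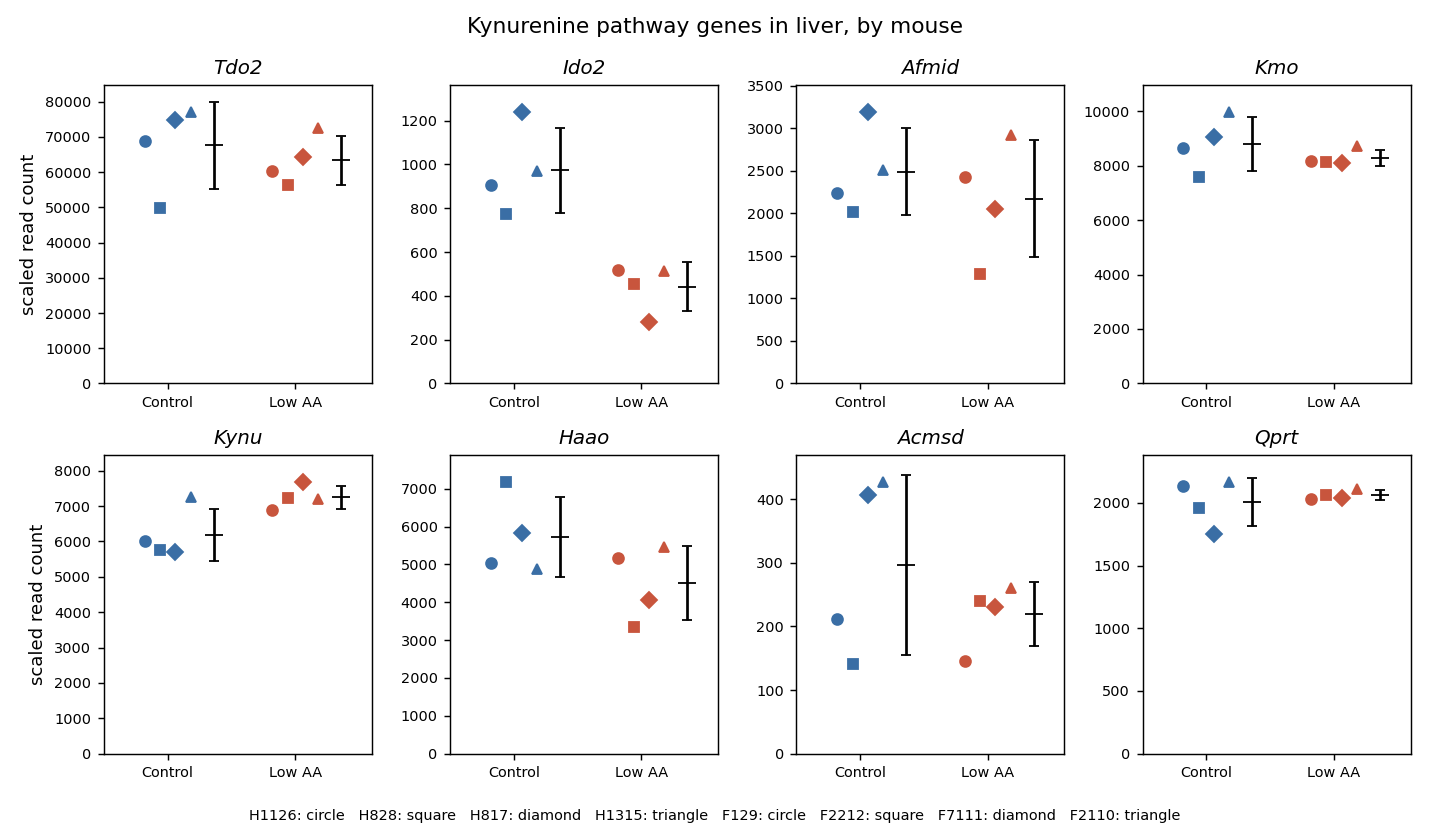
Scaled read counts (vertical axes, from 0) of the 8 pathway genes in the 4 Control mice (blue) and 4 Low AA mice (red), with 1 point per mouse and the mean ± SD beside each group. The Ido2 values of the Low AA mice, 280 to 518, lie below those of the Control mice, 775 to 1239, while in the other 7 genes the diets overlap.

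The steps at the top of the pathway differed widely in level. Tdo2 encodes tryptophan dioxygenase, the rate-limiting and largely hepatic enzyme that opens the indole ring. Divided by transcript length, its level was 25950 scaled read counts per kilobase over the 8 mice, and 0.721% of the 11646 genes with a length stood above it. Its values were 60369, 56227, 64418 and 72499 in the Low AA mice and 68921, 49694, 74688 and 77068 in the Control mice. The Low AA values lay inside the Control range, whose lowest and highest mice were F2212 and F2110. Between diets the log2 fold change was -0.08 (limma adjusted p = 0.898, standard error 0.16). Its 95% interval on this scale runs from -0.43 to 0.27. With each mouse left out in turn it ran from -0.22 without F2212 (limma adjusted p = 0.534) to -0.01 without F2110 (limma adjusted p = 0.993).

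Ido2 encodes an indoleamine dioxygenase of weak activity toward tryptophan, which is known to be expressed in liver and in antigen-presenting cells. It lies on chromosome 8 from 24531892 to 24576333 on the minus strand (GRCm38, GENCODE M21). Its paralogue Ido1, which lies beside it, was looked for and is not in the table. The Ido2 values were 518, 452, 280 and 515 in the Low AA mice H1126, H828, H817 and H1315. In the Control mice F129, F2212, F7111 and F2110 they were 906, 775, 1239 and 972. Every Low AA mouse lay below the lowest Control mouse, with no value between 518 and 775. Control mouse F7111 was the highest and Low AA mouse H817 the lowest.

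Low AA mice had a mean Ido2 value of 441 ± 112 (SD, n = 4), and Control mice had 973 ± 195 (SD, n = 4). This is a log2 fold change of -1.16 (standard error 0.21), a ratio of 0.448 with a 95% interval of 0.324 to 0.618. The limma adjusted p of 0.0511 missed the threshold, and Ido2 ranked 52 by p among the 11784 genes. The exact permutation test over mice, two-sided, gave p = 0.0286, the smallest that 4 mice against 4 allow. Any gene without overlap between the diets reaches it. Without Control mouse F2212 the limma adjusted p was 0.0383, and with each other mouse left out in turn it was between 0.067 and 0.116.

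Per kilobase, Tdo2 stood above Ido2 in all 8 mice. The ratio was 113, 121, 224 and 137 in the Low AA mice and 73.9, 62.3, 58.6 and 77.0 in the Control mice. The diets did not overlap in this ratio, as in Ido2 itself. Of the summed level of the 8 genes per kilobase, Tdo2 made up 66.3% to 69.5% in the Low AA mice and 59.6% to 70.1% in the Control mice, the lowest share being that of F2212.

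Afmid encodes arylformamidase, which releases kynurenine from the product of the dioxygenases. Its values were 2433, 1285, 2057 and 2928 in the Low AA mice and 2245, 2022, 3193 and 2509 in the Control mice. Low AA mouse H828 was the lowest of the 8, and the other Low AA mice lay within the Control range. Its log2 fold change was -0.24 (95% interval -0.76 to 0.28, limma adjusted p = 0.771), and without H828 it was -0.01 (limma adjusted p = 0.997). It was -0.33 without F2212 and -0.40 without H1315. Afmid begins on chromosome 11 at 117825924 and overlaps Tk1 on the opposite strand and the read-through gene model Gm20708 on its own strand, which shares 1566 exonic bases. How the authors' counting divided such reads is not given in the sources used here, so its value is uncertain.

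Kmo encodes kynurenine monooxygenase of the outer mitochondrial membrane, which hydroxylates kynurenine. Its values were 8176, 8140, 8085 and 8714 in the Low AA mice and 8642, 7579, 9032 and 9963 in the Control mice. The Low AA mice lay within the Control range and were close to each other, with a coefficient of variation of 3.53% against 11.2% in the Control mice. For Kmo the log2 fold change was -0.08 (95% interval -0.31 to 0.14, limma adjusted p = 0.821). It was -0.15 without F2212 and -0.02 without F2110.

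Kynu encodes kynureninase, a vitamin B6-dependent enzyme that cleaves hydroxykynurenine to hydroxyanthranilate. It was 1 of the 2 genes with a positive fold change. Its values were 6880, 7227, 7677 and 7200 in the Low AA mice and 6004, 5764, 5690 and 7251 in the Control mice. Control mouse F2110 lay among the Low AA mice, and the other 3 Control mice lay below them. Between diets its log2 fold change was 0.24 (standard error 0.10, unadjusted p = 0.0423, limma adjusted p = 0.404). The exact permutation test over mice, two-sided, gave p = 0.114 for Kynu. Without F2110 the log2 fold change was 0.32 (limma adjusted p = 0.248), and without F2212 it was 0.21.

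Kynureninase is also expressed in macrophages. Of 11 Kupffer cell and macrophage markers, 11 had a positive fold change, with a median log2 fold change of 0.21. The adjusted threshold (limma) was passed by 0, with 1 at an unadjusted p under 0.05, against 11.8% of all genes. Their summed values were 10954 to 15113 in the Low AA mice and 9960 to 15397 in the Control mice, with no marker at 0 in every mouse. Their part in the Kynu values was not tested.

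Per kilobase, the ratio of Kynu to Kmo was 0.98, 1.03, 1.11 and 0.962 in the Low AA mice. In the Control mice it was 0.809, 0.886, 0.734 and 0.848. The Low AA mice all lay above the Control mice in this ratio, although neither gene separated the diets alone. It is 1 of 4 ratios that were computed after the values had been seen, and it is given without a test.

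Haao encodes hydroxyanthranilate dioxygenase, whose product is the semialdehyde at the fork. Its values were 5161, 3360, 4050 and 5468 in the Low AA mice and 5031, 7176, 5821 and 4883 in the Control mice. The highest of the 8 mice was F2212, and the Low AA mice H828 and H817 lay below every Control mouse. For Haao the log2 fold change was -0.35 (95% interval -0.74 to 0.03, limma adjusted p = 0.475), and without F2212 it was -0.24 (limma adjusted p = 0.615). Leaving out H828 gave -0.22, and leaving out H1315 gave -0.46. The ratio of Haao to Kynu per kilobase was 1.18 to 1.92 in the Low AA mice and 1.71 to 3.15 in the Control mice, so the diets overlapped.

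At the fork, Acmsd encodes the decarboxylase that diverts the semialdehyde into the glutarate route and away from NAD. It was the lowest of the 8 genes, with 94.9 scaled read counts per kilobase, and 63.3% of the genes with a length stood above it. Its values were 146, 240, 230 and 260 in the Low AA mice and 212, 141, 407 and 427 in the Control mice. The Control mice fell apart into a lower pair, F129 and F2212, and a higher pair, F7111 and F2110, above every Low AA mouse. Acmsd had a log2 fold change (95% interval) of -0.33 (-1.08 to 0.43), with a limma adjusted p of 0.78. It ran from -0.63 without F2212 to -0.10 without F2110. The spread of Acmsd within a diet, pooled over both diets, was 0.60 on the log2 scale, and 96.5% of all genes had a smaller one. Its coefficient of variation was 22.9% in the Low AA mice and 47.9% in the Control mice.

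Qprt encodes the phosphoribosyltransferase that turns quinolinate into nicotinate mononucleotide and so commits the carbon to NAD. Its values were 2030, 2067, 2042 and 2113 in the Low AA mice and 2139, 1962, 1752 and 2166 in the Control mice. It was the steadiest of the 8 genes, with a coefficient of variation of 1.78% in the Low AA mice and 9.54% in the Control mice. Between diets the log2 fold change of Qprt was 0.05 (95% interval -0.16 to 0.26, limma adjusted p = 0.9). It was -0.02 without Control mouse F7111 and 0.04 without F2212.

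The ratio of Acmsd to Qprt per kilobase was 0.0543, 0.0876, 0.085 and 0.0928 in the Low AA mice. In the Control mice it was 0.0748, 0.0542, 0.175 and 0.149. Qprt stood above Acmsd in all 8 mice, and the diets overlapped, with the higher ratios in the same 2 Control mice that were high in Acmsd.

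**Figure D2:**
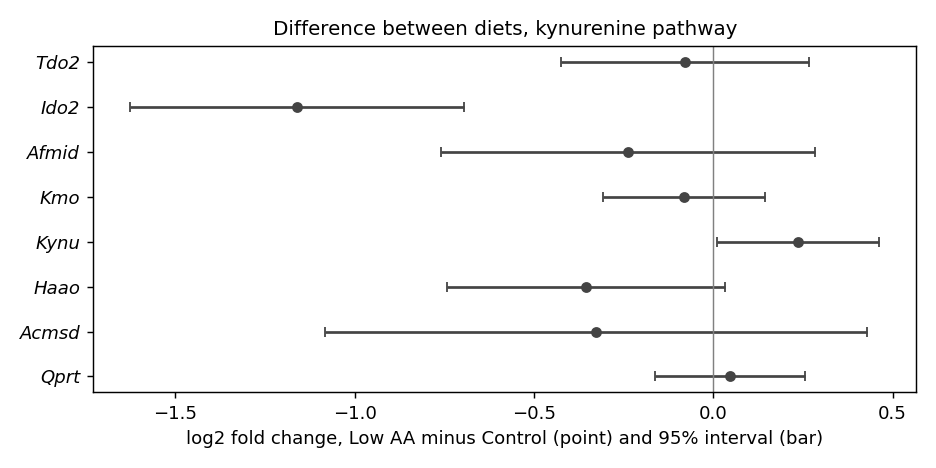
Log2 fold change between diets (horizontal axis, Low AA minus Control) with its 95% interval for each of the 8 genes, from limma with 4 mice a diet. The intervals of Ido2 and Kynu exclude 0, and all 8 points are grey because no adjusted p is under 0.05.

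The order of the levels per kilobase was Tdo2, Haao, Kmo, Kynu, Afmid, Qprt, Ido2 and Acmsd. Tdo2 stood at 25950 scaled read counts per kilobase over the 8 mice, Haao at 4744, Kmo at 2683 and Kynu at 2456, followed by Afmid at 1003, Qprt at 992, Ido2 at 288 and Acmsd at 94.9. Tdo2 lay apart from Haao, Kynu from Afmid, and Qprt from Ido2, with no overlap of their ranges over mice. The ranges of the other neighbours overlapped, although within each mouse Haao stood above Kmo and Ido2 above Acmsd. Lengths are the median of the coding transcripts of GENCODE M21, not those the authors used, and Haao has the shortest, 1079 bases, so its place depends on that choice.

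No mouse was the highest or the lowest in all 8 genes. Control mouse F2212 was the lowest of the 8 mice in Tdo2, Kmo and Acmsd and the highest in Haao. F2110 was the highest in 4 genes, Tdo2, Kmo, Acmsd and Qprt. F7111 was the highest in Ido2 and Afmid and the lowest in Kynu and Qprt. Among the Low AA mice, H1315, which also had the highest total, was the highest in 6 of the 8 genes. H828 was the lowest of all mice in Afmid and Haao.

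**Figure D3:**
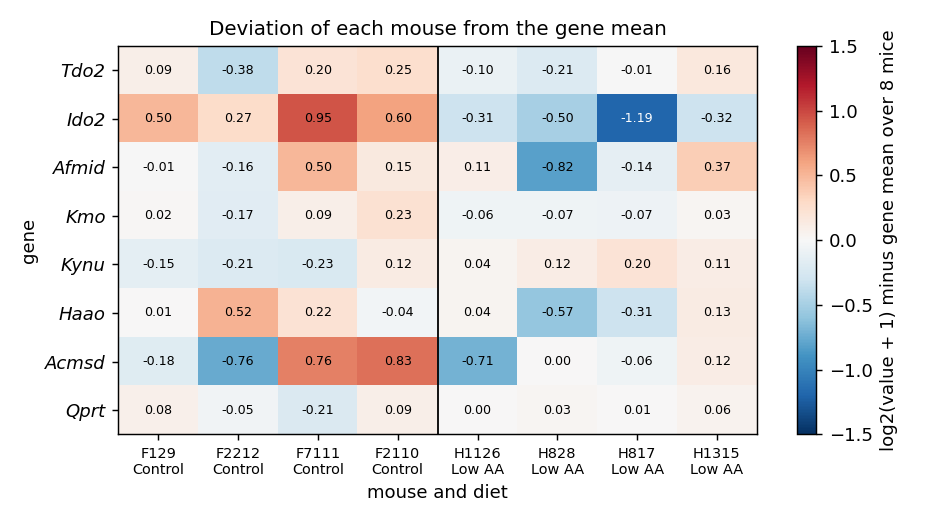
Deviation of each mouse (columns, Control left of the line) from the mean of each gene (rows) on the scale of log2(value + 1), with red above the mean and blue below. The row of Ido2 is positive in the 4 Control mice and negative in the 4 Low AA mice. Each of the other 7 rows changes sign within the Control mice.

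Of 96 further genes in 11 lists around the pathway, 81 were in the table. Among these, 0 were called higher and 1, Aox1, was called lower on the Low AA diet (limma adjusted p under 0.05), against 0.102% and 0.297% of all genes. At an unadjusted p under 0.05 there were 14 of the 81, 17.3%, against 11.8% of all genes. In 7 of the 81, 8.64%, the diets did not overlap, against 6.81% of all genes.

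The side branches convert kynurenine to kynurenic acid by transamination. Of these 4 aminotransferase genes, 2 had a positive and 2 a negative fold change, and none passed the threshold. For Aadat the log2 fold change was -0.30, with a limma adjusted p of 0.559, and for Got2 it was 0.07, with 0.833. Kyat1, listed under its older symbol Ccbl1, had 1154 to 1557 in the Low AA mice and 1366 to 2064 in the Control mice (log2 fold change -0.38, unadjusted p = 0.0312, limma adjusted p = 0.36). Kyat3, listed as Ccbl2, went the other way, with 3413 to 6012 and 2490 to 4139 (log2 fold change 0.42, limma adjusted p = 0.46).

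Beyond Acmsd, the 7 genes of the glutarate route had a median log2 fold change of 0.09, and none passed the threshold or an unadjusted p under 0.05. Aldh8a1, which oxidises the aminomuconate semialdehyde, had a log2 fold change of 0.09, and the later Dhtkd1 and Gcdh, which act on oxoadipate and glutaryl-CoA, had 0.08 and -0.10. For Ogdh, Dlst and Hadh it was 0.03, 0.14 and 0.16. Acat1, the acetoacetyl-CoA thiolase at the end of the route, did not overlap between diets, with 23257 to 26583 in the Low AA mice and 20190 to 22898 in the Control mice (log2 fold change 0.19, limma adjusted p = 0.483).

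Of the 7 NAD synthesis genes in the table, 3 had a positive and 4 a negative fold change, with a median of -0.01, and none passed the threshold. Nadsyn1, which completes NAD made from quinolinate, had -0.01 on the log2 scale (limma adjusted p = 0.983), and Nampt, which salvages nicotinamide, had -0.08 (limma adjusted p = 0.864). Naprt, which uses nicotinate and is listed as Naprt1, had -0.33 (unadjusted p = 0.0368, limma adjusted p = 0.381). The adenylyltransferase genes Nmnat1 and Nmnat3 had 0.29 and -0.30 (limma adjusted p = 0.422 and 0.499). Nadk, the NAD kinase, had 0.15 (limma adjusted p = 0.597). Its diets narrowly did not overlap, with 7287 to 8576 in the Low AA mice and 6541 to 7273 in the Control mice. Nnt, the mitochondrial transhydrogenase, in which C57BL/6J mice are known to carry a deletion, did not overlap between diets either. It had 2247 to 3094 in the Low AA mice and 1858 to 1957 in the Control mice (log2 fold change 0.43, limma adjusted p = 0.146).

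The call lay in the list of nicotinamide methylation and oxidation and of NAD breakdown. Aox1, an aldehyde oxidase that oxidises methylnicotinamide among other substrates, had 824, 1029, 704 and 753 in the Low AA mice and 1476, 1956, 1741 and 1738 in the Control mice. It fell by 1.07 on the log2 scale (limma adjusted p = 0.0106, standard error 0.14), and the diets did not overlap. Its neighbour Aox3 had -0.86 (limma adjusted p = 0.195). Nnmt, which methylates nicotinamide, had 1266, 940, 2707 and 4563 in the Low AA mice and 3574, 7547, 4352 and 6969 in the Control mice. Low AA mouse H1315 lay within the Control range (log2 fold change -1.45, standard error 0.45, limma adjusted p = 0.22). Cd38, an NAD-consuming hydrolase, did not overlap between diets, with 524 to 593 in the Low AA mice and 417 to 472 in the Control mice (log2 fold change 0.32, limma adjusted p = 0.216). Over the 12 genes of this list in the table, NAD-consuming enzymes included, 8 had a positive and 4 a negative fold change, with a median of 0.04.

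**Figure D4:**
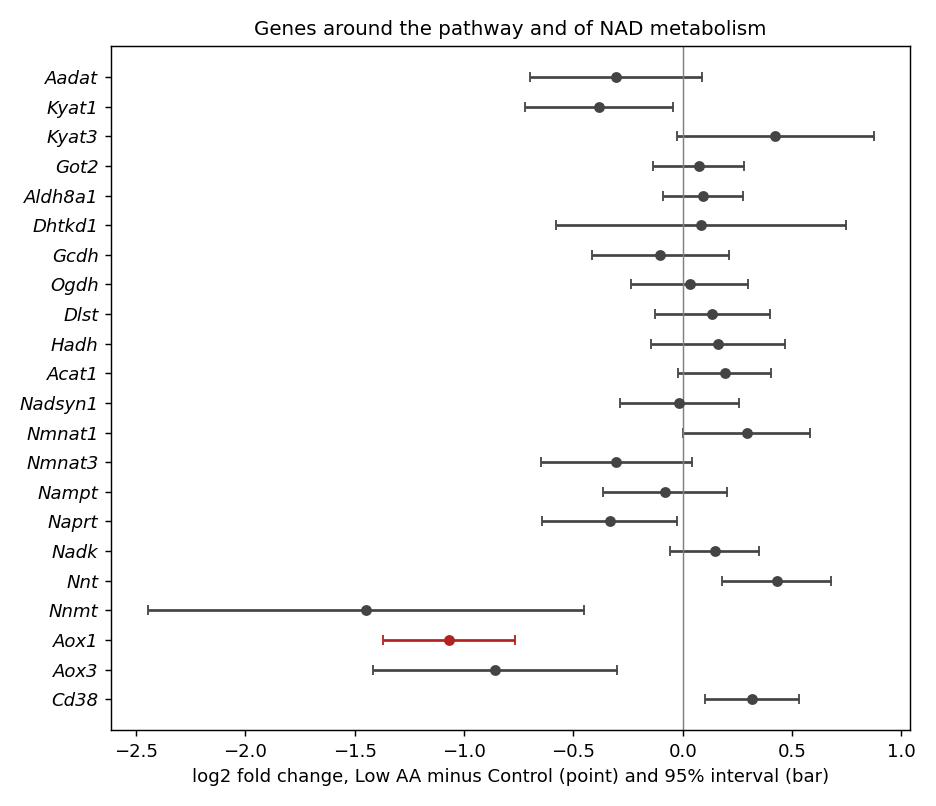
Log2 fold change between diets (horizontal axis, Low AA minus Control) with its 95% interval for named genes around the pathway. They belong to the kynurenine side branches, the glutarate route, NAD synthesis, and nicotinamide methylation and oxidation with NAD breakdown. Aox1, in red, has an adjusted p under 0.05, and Nnmt, at -1.45, has the widest interval.

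The genes that supply substrate and cofactor had few differences. Of 6 tryptophan transporter genes in the table, 0 had an unadjusted p under 0.05, with a median log2 fold change of -0.13. The same count was 0 for 6 other genes of tryptophan use, among them Ddc, Maoa and the tryptophan tRNA ligase Wars, with a median of 0.02. Of the 3 genes reported from a list on the supply of vitamin B6, 0 had an unadjusted p under 0.05 either, and their median log2 fold change was 0.01.

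Kynurenine and its products are ligands of the receptor Ahr. On the log2 scale Ahr differed by -0.08 (limma adjusted p = 0.916), and its target Cyp1a2 had -0.59 (unadjusted p = 0.011, limma adjusted p = 0.245). Over the 6 genes of this list in the table the median was -0.03, and none passed the threshold.

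Among 9 regulators, 0 had an unadjusted p under 0.05. The log2 fold change was 0.10 for the glucocorticoid receptor Nr3c1, 0.23 for Ppara and 0.08 for Hnf4a. Of 10 glucocorticoid-inducible genes, 8 had a positive fold change, with a median of 0.21. Tat, the tyrosine aminotransferase, had 0.29 (limma adjusted p = 0.781). The kinase gene Sgk1 did not overlap between diets, with 1564 to 2557 in the Low AA mice and 720 to 1330 in the Control mice (log2 fold change 1.16, limma adjusted p = 0.0611). All 11 genes reported from a list of PPARA targets had a positive fold change, with a median of 0.27. Of these 11, 4 had an unadjusted p under 0.05, against 11.8% of all genes, and none passed the threshold. The 4 were Acot1, Cyp4a14, Pdk4 and Plin2, with log2 fold changes of 0.62, 0.40, 1.40 and 0.52, and Cyp4a14 did not overlap between diets.

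Markers of other cells were examined beside these values. Of the 38 that the table holds, 0 passed the adjusted threshold in limma. An unadjusted p under 0.05 was found in 6 of the 38, against 11.8% of all genes. The macrophage marker Adgre1, listed as Emr1, was the only positive one of the 6, with a log2 fold change of 0.29. Col1a1 of stellate cells had -1.07, Krt19 and Sox9 of cholangiocytes -0.87 and -1.05, and Hba-a1 and Alas2 of blood -0.72 and -0.49. Col1a1 and Alas2 did not overlap between diets. Of 4 blood markers in the table, 4 had a negative fold change, with summed values of 9211 to 13541 in the Low AA mice and 7206 to 27464 in the Control mice. Of 4 cholangiocyte markers, 4 were negative as well, with summed values of 826 to 1316 and 1124 to 2265. Sums of 8 stellate cell markers were 8811 to 11072 and 8515 to 10972, and those of 7 sinusoidal endothelial markers were 7118 to 7847 and 5789 to 8443. Dcn made up most of the stellate sum and Spp1 most of the cholangiocyte sum, so these sums say little of the other markers. Lymphoid cells, acinar pancreas, adipose tissue and kidney had 1 marker each in the table. No marker was at 0 in every mouse, and the part of these cells in the Ido2 values was not tested.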

How the data were processed

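Liver RNA of 4 Low AA and 4 Control mice was analysed from 1 table, grouped by the diet in the labels. The deposited values, 1 for every gene in every mouse, are a signal: a read count that the authors scaled and rounded. The submitters' processing notes name STAR 2.5.0a, RSEM 1.2.6 and edgeR 3.10.5 and the build mm10, without their roles. The scaling is not stated. In every gene the third highest of the 8 values was 28 or more, so poorly expressed genes were left out by the authors. The deposited fold change and FDR of the authors' own comparison were not used.

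The scale of the tests was log2(value + 1), which understates changes of low values. A model with diet as its term was fitted in limma 3.58.1 (R 4.3.3) with the trend option, and p-values were adjusted by Benjamini and Hochberg over 11784 genes. No count model was applied, since the values are scaled, and no filter was added. The fit was also run on simulated counts with the same spread setting for every gene. That checks the code and does not bear on the results of the pathway genes. The members and lists were chosen with earlier results of these data known, so no p over the lists is given. All members are named. Genes of the lists are named where called, where an unadjusted p was under 0.05, where the diets did not overlap, or where they hold a set place in the pathway. Marker lists are given by their counts and summed values, and markers with an unadjusted p under 0.05 are named. Older symbols were matched through RefSeq synonyms. Positions and lengths are from GENCODE M21 on GRCm38, the assembly also called mm10. Some listed genes and an upstream sequence are not reported here, and the counts of their lists leave those genes out. Alternatives were a pseudocount of 0.1 or 5, a restriction to the 8000 most abundant genes or to genes with at least 100 in at least 4 mice, equal column totals, median of ratios scaling, no trend, robust moderation, vooma weights, an adjusted p under 0.1, and each mouse left out. Figures were drawn with matplotlib 3.10.9.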

Additional observations from a re-analysis of the deposited data

Results flagged for a closer look

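Values of the named genes were examined in 82 groups of 4 mice for 1 mouse far from the other 3, and 4 groups had one, where chance gives about 1 in 20. Of the 8 pathway genes, 1 was among them. Low AA mouse H1315 lay above the other Low AA mice in Kmo, with 8714 against 8085 to 8176 (gap over range 0.851). H1315 also had the highest total of the 8 mice, 30799385, and the flag was not repeated on equal totals. Control mouse F2212 lay above the other Control mice in Gcdh (0.875), and F2110 in Sgk1 (0.837). Low AA mouse H828 lay above the others in Cd38 (0.832).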

How the results depend on the processing

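No paired analysis was possible because the mouse codes are not shared between the diets and the replicate numbers only name the mice. Over 18 alternatives for each of the 8 genes, 144 in all, 141 kept the direction and the side of the threshold. Ido2 kept its direction in all 18, with an adjusted p of 0.0383 to 0.116, and passed with a log2 fold change of -1.26 without Control mouse F2212 and with its value of -1.16 at an adjusted p under 0.1. With each mouse left out its log2 fold change ran from -1.26 to -0.96. With each mouse left out, the log2 fold change of Qprt ran from -0.017 to 0.085, and it was negative without Control mouse F7111. The count of pathway genes past the threshold was 0, and 1 at an adjusted p under 0.1 or without F2212, so it ran from 0 to 1 with a mouse left out. The count over all genes was 47. It was 19 among the 8000 most abundant genes, 30 among genes with at least 100 in at least 4 mice, 30 without the mean-variance trend and 132 at an adjusted p under 0.1. With a mouse left out it ran from 16 to 77. Leaving out H1126, H828 or H817 of the Low AA diet gave 21, 19 or 16, and leaving out F129 or F2212 of the Control diet gave 29 or 77. The cause of these changes in the count was not tested. Fewer genes entered the fit under the filters, and fewer mice when 1 was left out. With 4 mice a diet, the intervals leave changes in Acmsd from 0.473 to 1.35 times the Control level undecided.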

Other observations

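Control mouse F2212, the lowest of the 8 mice in Tdo2, was also the lowest in Tat, Cps1 and Dhtkd1, which act in amino acid and nitrogen metabolism. It had 42227 scaled read counts of Tat, against 66345 to 124510 in the other mice. It had 74154 of Cps1, the first enzyme of the urea cycle, against 131511 to 240897, and 670 of Dhtkd1, against 1021 to 2100. Among other genes of the kynurenine and glutarate routes, F2212 was also the lowest in Kmo, Acmsd, Ogdh and Dlst, with 7579, 141, 7110 and 7106. Some genes of these routes went the other way. F2212 was the highest of the 8 mice in Haao, Gcdh and Hadh, with 7176, 16780 and 14590. These genes were picked after their values were seen.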
